A study of Mus musculus with 2 samples.

Results

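The renin-angiotensin system genes described here are 9 rows of the deposited tables, matched by symbol among 55386 features: the angiotensin II receptors Agtr1a, Agtr1b and Agtr2, the angiotensin-(1-7) receptor Mas1, the type 1 receptor's partner Agtrap, the (pro)renin receptor Atp6ap2, and the peptidases Ace, Anpep and Lnpep. All 9 were found, each as 1 row in both libraries. Transcripts were counted in single CD45+ cells sorted from the aortic adventitia of RankCre Rosa26eYFP mice aged about 16 weeks, in which a Cre recombinase driven from the Rank locus switches on eYFP for good in cells that use that locus and in their descendants. The steady state library pooled 3 untreated animals, and the AngII library pooled 2 animals given angiotensin II at 1.8 µg per kg per min by osmotic pump for 10 days. With 1 library per condition there was no replicate and no test: intervals below are exact 95% intervals that cover counting error only, and condition, animals and library cannot be told apart.

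The renin-angiotensin system starts from angiotensinogen, which renin cuts to angiotensin I and angiotensin-converting enzyme (Ace) shortens to angiotensin II. Angiotensin II constricts vessels and raises blood pressure mainly through the type 1 receptor, which mice encode as the paralogs Agtr1a and Agtr1b. The aminopeptidases trim the peptides further, and angiotensin II infusion is a standard way to inflame the arterial wall and fill its adventitia with leukocytes.

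After filtering, the steady state library held 306 cells with 3647973 UMIs (unique molecular identifiers, each standing for 1 captured transcript) and a median of 9105 UMIs per cell, and the AngII library held 4198 cells with 18008885 UMIs and a median of 1092. No barcode was shared. The cells were leukocytes by their transcripts: Ptprc, which encodes CD45, stood at 912 CPM (UMIs of a gene scaled to 1000000 UMIs of all genes) at steady state and 830 CPM on AngII, while the summed fibroblast markers (6 genes) stood at 9.05 and 4.94 CPM and the endothelial markers (6 genes) at 12.1 and 14.6 CPM. The 6 smooth muscle markers held 423 UMIs at steady state, 419 of them in 1 cell, and 139 UMIs on AngII. Each cell was assigned to the marker list on which it scored highest. Class names below stand for cells that passed such a gate and so are "-like" cells: 273 of the 306 steady state cells (89.2%) and 3295 of the 4198 AngII cells (78.5%) passed one, 49 and 550 of them lay near the boundary to another list, and 19 and 248 also passed a gate of another lineage. The classes are ranges of a score, and neighbouring macrophage lists overlap: steady state cells of the macrophage gate carried a median of 10 resident macrophage markers beside 10 of their own. The 24 steady state cells of the type-2 dendritic gate carried a median of 10 resident macrophage and 7.5 macrophage markers beside 4 of their own. Their leading genes included Top2a and histone genes, so at steady state this gate cannot be taken as a clean dendritic class.

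Promoters are shown for Ace and Anpep, the 2 members with the fewest UMIs above 0 (425 and 709 over all barcodes), and for 2 receptors at 0. Those of Agtrap (880 UMIs), Lnpep (3423) and Atp6ap2 (3675) are not printed. The stretches from 250 bases before to 50 bases after the start of 2 members with UMIs and 2 receptors without any are shown, 5′ to 3′ on the gene's own strand, from RefSeq on GRCm38.p6, with the letters GGGCGG of a GC box in capitals. Ace lies on the plus strand at chr11:105967698-105967997, Anpep on the minus strand at chr7:79848161-79848460, Agtr1b on the minus strand at chr3:20367128-20367427 and Agtr2 on the plus strand at chrX:21484374-21484673. The Anpep stretch lies inside the GENCODE span of the gene, chr7:79821803-79861059, and not at its 5′ end, so it need not be the only Anpep promoter.
Ace: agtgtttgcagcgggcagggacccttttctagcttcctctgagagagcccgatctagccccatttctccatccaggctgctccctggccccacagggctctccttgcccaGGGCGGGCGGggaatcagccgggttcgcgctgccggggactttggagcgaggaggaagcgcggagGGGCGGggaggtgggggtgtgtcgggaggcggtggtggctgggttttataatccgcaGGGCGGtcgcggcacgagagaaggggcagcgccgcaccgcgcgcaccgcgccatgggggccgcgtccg
Anpep: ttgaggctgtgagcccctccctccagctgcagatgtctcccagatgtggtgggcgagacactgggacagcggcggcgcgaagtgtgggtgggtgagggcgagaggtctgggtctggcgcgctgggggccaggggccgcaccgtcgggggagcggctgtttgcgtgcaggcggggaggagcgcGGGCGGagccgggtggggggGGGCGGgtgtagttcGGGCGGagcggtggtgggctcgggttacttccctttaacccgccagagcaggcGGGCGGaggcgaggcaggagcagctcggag
Agtr1b: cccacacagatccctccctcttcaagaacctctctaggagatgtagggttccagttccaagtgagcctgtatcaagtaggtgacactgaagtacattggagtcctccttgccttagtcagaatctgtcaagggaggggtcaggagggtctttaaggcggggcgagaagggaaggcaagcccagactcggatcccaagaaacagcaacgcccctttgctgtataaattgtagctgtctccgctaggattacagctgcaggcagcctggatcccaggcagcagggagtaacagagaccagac
Agtr2: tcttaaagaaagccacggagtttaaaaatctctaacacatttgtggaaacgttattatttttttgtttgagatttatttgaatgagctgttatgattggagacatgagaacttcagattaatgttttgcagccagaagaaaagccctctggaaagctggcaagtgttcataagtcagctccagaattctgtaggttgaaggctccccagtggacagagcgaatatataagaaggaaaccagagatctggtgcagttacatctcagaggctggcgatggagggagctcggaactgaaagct
Of the 9 genes, 8 had a promoter in the table (Agtr1a had none). GGGCGG, or its reverse complement CCGCCC, was present for 5 of 5 members with UMIs and for 0 of 3 receptors, against 35.7% of 32851 promoters, 62.7% of those of genes with 100 or more UMIs and 16.6% of those of genes with 0 UMIs. The printed Ace and Anpep promoters held 4 copies each, and of those not printed Lnpep held 4, Atp6ap2 2 and Agtrap 1. A second Ace start at chr11:105974939-105975238 held 0 copies. The letters TATAAA (reverse complement TTTATA) were present in the first Ace promoter and in Agtr1b, and in 13.6% of all promoters. These are matches of letters in a short window and not mapped sites.

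No UMI of an angiotensin receptor was counted. Agtr1a (chr13:30336441-30382867, plus strand, GRCm38) and Agtr1b (chr3:20314473-20367177, minus) encode the type 1 receptor. Agtr2 (chrX:21484544-21489164, plus) encodes the type 2 receptor, which opposes many type 1 effects, and Mas1 (chr17:12841079-12868143, minus) the receptor for angiotensin-(1-7). Each had 0 UMIs over all 346 barcodes and 4009678 UMIs at steady state and all 4419 barcodes and 20481854 UMIs on AngII, so the 4 genes together also had 0. A count of 0 allows at most 0.822 CPM per gene over the filtered steady state cells and 0.167 CPM on AngII, taken at 3 UMIs. In macrophages pooled over the 4 macrophage lists, 0 of 105 cells allowed a share with a UMI of up to 2.86% at steady state and 0 of 1350 cells a share of up to 0.222% on AngII, with CPM limits of 1.98 and 0.463. The limit was looser for small classes: 9.12 CPM in 36 T cells and 23.6 CPM in 12 nonclassical monocytes at steady state, against 2.35 CPM in 313 T cells and 4.07 CPM in 115 nonclassical monocytes on AngII. Silence is common in these tables, since 30.3% of 21897 protein-coding genes and 57.1% of all features had 0 UMIs in both libraries, so the 4 of 9 members at 0 (44.4%) are to be read against that share. None of the 91-base windows of the last 500 bases of any member's transcripts in GENCODE M21 occurred in another gene.

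Ace, the dipeptidyl carboxypeptidase that makes angiotensin II and degrades bradykinin (chr11:105967945-105989964, plus strand), was concentrated in monocytes in both libraries. It had 215 UMIs in 24 of 306 cells at steady state and 188 UMIs in 70 of 4198 cells on AngII. The nonclassical monocyte gate, the patrolling monocytes marked here by Treml4, Cd300e, Adgre4, Eno3, Spn, Gngt2 and Pglyrp1, held 58.6% of the UMIs at steady state and 58.5% on AngII. The classical monocyte gate held a further 33.0% and 22.3%.

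At steady state 11 of 12 nonclassical monocytes had an Ace UMI, with 126 UMIs in all and 989 CPM (824 to 1178). Per cell the level ran from 0 through a median of 984 CPM to 1573 CPM, and the cell with the most Ace held 25 UMIs. Of the 12 classical monocytes 8 had a UMI, with 71 UMIs and 398 CPM (311 to 502), a median of 177 CPM and a highest cell of 1071 CPM. The ranges of the 2 gates overlapped, and the classical gate was mixed, because its cells carried a median of 3.5 distinct nonclassical markers beside 6 classical ones.

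On AngII 25 of 115 nonclassical monocytes (21.7%, 14.6 to 30.4%) had an Ace UMI, with 110 UMIs and 149 CPM (123 to 180). These cells carried a median of 3 nonclassical markers beside 5 macrophage-list markers. Ccr2 was found in 62.6% of them against 25% at steady state, and in 62.5% against 32.4% of pooled macrophages. Of the classical list, Ly6c2, Vcan and F10 were found in a larger share of this gate on AngII than at steady state. Plac8, Hp, Ifitm6 and Ms4a4c were found in a smaller share. The classical gate had 42 UMIs in 15 of 323 cells and 23.3 CPM (16.8 to 31.5). T and B cells, which are not known for Ace, had a UMI in 0 of 82 cells at steady state and in 3 of 485 (0.619%) on AngII, with 5 of the 7 UMIs in 1 T cell, at median depths of 6368 and 1041 UMIs against 9702 and 1773 in nonclassical monocytes. With every cell thinned to 1000 UMIs, 6 of 12 nonclassical monocytes kept an Ace UMI at steady state, and 11 of 85 (12.9%) did on AngII, where 30 shallower cells were left out.

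Nonclassical monocytes exceeded the other gated cells in both libraries. Nonclassical monocytes stood at 989 against 28.1 CPM at steady state, 35.2-fold higher (26.6 to 46.8), and at 149 against 4.42 CPM on AngII, 33.8-fold higher (24.8 to 46.2). As a mean of each cell's CPM the steady state value was 55.1 and the AngII value 33.3. Among all genes with enough UMIs, 11.3% were 2-fold or more higher in that gate at steady state and 4.4% on AngII. Nonclassical over classical monocytes gave 2.49 (1.85 to 3.38) at steady state and 6.40 (4.45 to 9.36) on AngII, where 8.93% and 5.88% of genes were 2-fold higher.

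**Figure D1:**
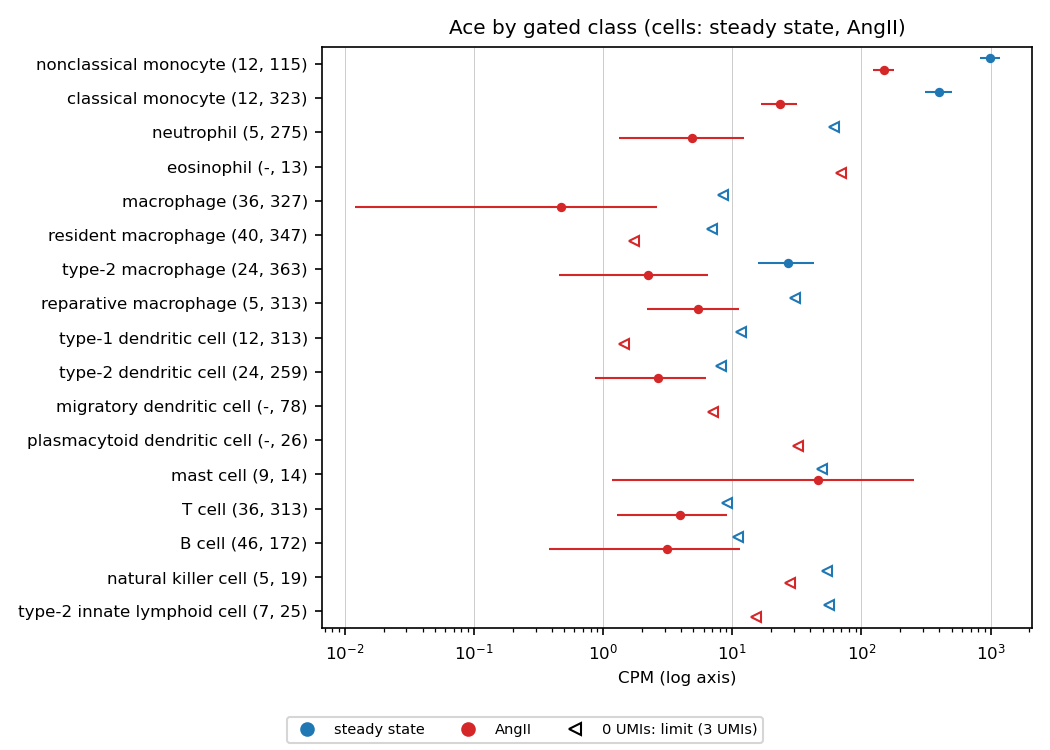
Ace level in CPM (log axis) in each gated class of the steady state (blue) and AngII (red) libraries, with exact 95% counting intervals, and open triangles for the limit at 3 UMIs where no UMI was counted. Cell numbers stand beside each class, a dash marks a gate not reported, and the 2 monocyte classes stand at 989 and 398 CPM in steady state and 149 and 23.3 CPM on AngII. Within each library they lie above every other class with a UMI except the AngII mast cells, whose 46.1 CPM is 1 UMI.

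Outside the monocytes Ace was scarce. Resident macrophages, the Lyve1 and Folr2 class of the adventitia, had 0 UMIs in 40 cells at steady state, which allows up to 6.91 CPM, and 0 UMIs in 347 cells on AngII, which allows up to 1.75 CPM. Type-1 dendritic cells had 0 UMIs in 12 and 313 cells. In the AngII library every class other than monocytes, mast cells and those at 0 lay between 0.471 and 5.45 CPM, and neighbours in that order did not differ beyond their intervals. The mast cell value of 46.1 CPM was 1 UMI in 14 cells. Among steady state macrophages the 17 UMIs all fell in 4 cells of the type-2 macrophage gate, and 13 of them came from 1 cell that also carried 7 of 7 nonclassical markers and passed the monocyte gates.

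The Ace level of monocytes differed between the libraries, and so did the monocytes. In nonclassical monocytes 149 CPM on AngII against 989 CPM at steady state gave a ratio of 0.151 (0.116 to 0.196), and over both monocyte gates 59.9 against 644 CPM gave 0.0930 (0.0748 to 0.116). Of all genes 11.1% in the nonclassical gate and 9.87% in the pooled monocytes were 2-fold or more lower on AngII. Of the other members in pooled monocytes, Atp6ap2 stood at 151 CPM on AngII and 91.5 CPM at steady state (1.65, 1.13 to 2.52), Agtrap at 27.6 and 19.6 CPM (1.41, 0.615 to 3.96) and Lnpep at 155 and 183 CPM (0.848, 0.640 to 1.14). Anpep had 31 UMIs on AngII, 12.2 CPM, and 0 UMIs at steady state, where 3 UMIs over the 24 cells would be 9.81 CPM. The ratio taken at 3 UMIs is 1.25, which is not the start of an exact interval, so a higher level on AngII was not settled. The 7 list markers themselves were lower in the AngII gate, with single ratios from 0.180 for Spn (sialophorin, CD43) to 0.528 for Gngt2 (a G protein subunit) and a ratio of 0.356 (0.324 to 0.392) for their sum. Relative to the UMIs of those markers, the Ace ratio was 0.424 (0.325 to 0.552). The median nonclassical monocyte carried 7 of the markers at steady state and 3 on AngII. Among nonclassical monocytes with 5000 or more UMIs (10 and 36 cells) the ratio was 0.167 (0.127 to 0.219).

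Counted by the number of distinct nonclassical markers in a cell, whatever its gate, Ace lay close in the 2 libraries at the upper end. Cells with all 7 markers had 779 CPM (636 to 945) in 10 steady state cells and 630 CPM (469 to 829) in 7 AngII cells, and 9 of 10 and 7 of 7 of them had an Ace UMI. Cells with 6 markers had 742 CPM in 7 cells and 480 CPM (284 to 758) in 3 cells. Joined, cells with 6 or more markers gave a ratio of 0.766 (0.573 to 1.01), and cells with 4 or more gave 0.290 (0.230 to 0.365) over 22 and 48 cells. Relative to the marker UMIs, the ratio in cells with 6 or more markers was 0.659 (0.493 to 0.870). Cells with 4 markers had 36.5 CPM (9.93 to 93.3) at steady state and 50.8 CPM (32.9 to 75.0) on AngII. Cells with 3 markers lay apart, at 66.7 CPM (30.5 to 127) in 9 steady state cells and 8.11 CPM (4.54 to 13.4) in 111 AngII cells. Cells with 0 markers had 1.89 CPM at steady state and 2.77 CPM on AngII. Depth differed between these groups: on AngII the median was 838 UMIs at 0 markers, 15501 at 3 and 6828 at 7. These groupings were chosen after the gate's values were seen, the top ones hold few cells, and how much of the lower Ace level goes with the marker content of the gate was not tested.

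**Figure D2:**
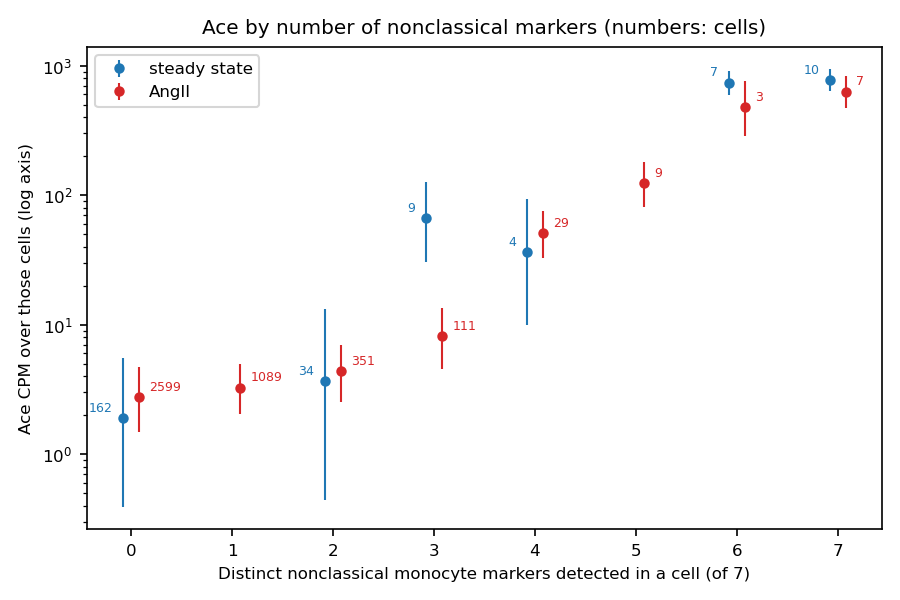
Ace level in CPM (log axis) over all filtered cells that carry a given number of the 7 nonclassical monocyte markers, for steady state (blue) and AngII (red), with exact 95% counting intervals and the number of cells beside each point. Points with 0 Ace UMIs (steady state cells with 1 or 5 markers) are not drawn. The level is 8.11 CPM or less up to 3 markers on AngII and 630 CPM at 7. At steady state it is 66.7 CPM at 3 markers and 779 CPM at 7.

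Anpep (CD13), the membrane alanyl aminopeptidase that turns angiotensin III into angiotensin IV and a surface marker of myeloid cells (chr7:79821803-79861059, minus strand), was highest in type-1 dendritic cells. At steady state these had 39 UMIs in 9 of 12 cells and 152 CPM (108 to 208), and on AngII 212 UMIs in 80 of 313 cells and 103 CPM (89.7 to 118). Over the other gated cells of the same library this was 15.8-fold (9.49 to 26.4) and 5.37-fold (4.47 to 6.44) higher, where 6.78% and 6.09% of genes were 2-fold or more higher. The gates used Xcr1, Clec9a, Wdfy4, Ifi205, Snx22, Tlr3 and Irf8 and not Anpep.

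Next in the AngII order came reparative macrophages, gated on Arg1, Spp1 and 4 other genes, at 47.5 CPM (36.3 to 61.0), then migratory dendritic cells at 42.5 CPM (25.2 to 67.2), which did not differ beyond their intervals. Neutrophils had 2 UMIs in 275 cells, 2.42 CPM. Type-1 dendritic cells exceeded the next class by 2.17-fold (1.63 to 2.94), and this was the only neighbouring pair of 13 whose interval lay above 1.

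Lymphoid cells (T, B, natural killer and type-2 innate lymphoid gates) had 0 Anpep UMIs in 94 cells at steady state and 14 UMIs in 529 cells on AngII, 6.32 CPM (3.46 to 10.6). Myeloid and mast cells had 68 UMIs in 179 cells, 26.6 CPM, and 477 UMIs in 2753 cells, 33.3 CPM. Type-1 dendritic cells held most of these UMIs at steady state and more than any other class on AngII. Steady state monocytes had none, and AngII neutrophils, at 2.42 CPM, lay below the lymphoid cells. With 3 lymphoid UMIs in place of the 0, the myeloid level was 6.28-fold higher at steady state. The exact interval of the ratio starts lower, at 4.97, and the mean of each cell's CPM gave 3.64. On AngII the myeloid level was 5.27-fold higher (3.11 to 9.72). Of all genes 23.3% at steady state and 17.6% on AngII were 2-fold or more higher. The AngII ratio moved with the weight given to deep cells: as a mean of each cell's own CPM it was 1.48, and after thinning to 1000 UMIs it was 2.52. Of cells thinned to 1000 UMIs, 22 of 186 AngII type-1 dendritic cells (11.8%) kept an Anpep UMI against 4 of 300 lymphoid cells (1.33%), while 0 of the 12 steady state type-1 dendritic cells did.

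Agtrap and Atp6ap2 were higher in macrophages than in T and B cells in both libraries. Agtrap (chr4:148077061-148088031, minus strand) binds the type 1 receptor and promotes its internalisation. Atp6ap2 (chrX:12587801-12617049, plus strand), the (pro)renin receptor, is also an accessory subunit of the vacuolar proton pump. Agtrap was highest in resident macrophages among classes of at least 20 cells, at 71.4 CPM (48.5 to 101) in 40 steady state cells and 76.9 CPM (64.3 to 91.2) in 347 AngII cells. This was 2.19-fold (1.41 to 3.33) and 2.60-fold (2.12 to 3.17) the level of the other gated cells, where 10.8% and 8.16% of genes were 2-fold or more higher. The natural killer gate read 109 CPM and 83.6 CPM from 6 and 9 UMIs in 5 and 19 cells.

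In pooled macrophages Agtrap stood at 49.4 CPM at steady state and 53.3 CPM on AngII, against 21.7 and 13.6 CPM in T and B cells. The ratios were 2.28 (1.25 to 4.47) and 3.92 (2.63 to 6.08). Atp6ap2 stood at 163 and 188 CPM in macrophages and at 41.7 and 80.1 CPM in T and B cells, with ratios of 3.90 (2.58 to 6.14) and 2.35 (1.99 to 2.80). Of all genes 24.7% and 18.3% were 2-fold or more higher in macrophages in this comparison, so 2 of 3 measured members at steady state and 3 of 4 on AngII, Anpep being the third at 4.08 (2.28 to 8.06), stand beside a common direction. The 2-fold calls on AngII did not hold under every setting for 2 of these members: Anpep was at 1.17 after thinning to 500 UMIs and 1.01 as a mean of each cell's CPM, and Atp6ap2 was between 1.56 and 1.92 after both thinnings, as that mean and without mitochondrial and ribosomal protein genes in the scaling. At steady state, over the alternatives, Agtrap ran from 1.56 to 5.45 and Atp6ap2 from 1.95 to 7.01.

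Within the macrophages Atp6ap2 was at 214 CPM (173 to 262) in resident macrophages at steady state, against 138 CPM (102 to 183) in the macrophage gate and 128 CPM (102 to 160) in the type-2 gate. On AngII the resident gate stood at 217 CPM (196 to 240) and the reparative gate at 221 CPM (196 to 248), with the macrophage gate at 168 and the type-2 gate at 152 CPM. None of the 13 neighbouring pairs in the AngII order had an interval above 1, from plasmacytoid dendritic cells at 257 CPM to type-2 innate lymphoid cells at 71.5 CPM, a 3.59-fold range. Both ends are gates of 26 and 25 cells that rest on a median of 2 markers per cell.

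**Figure D3:**
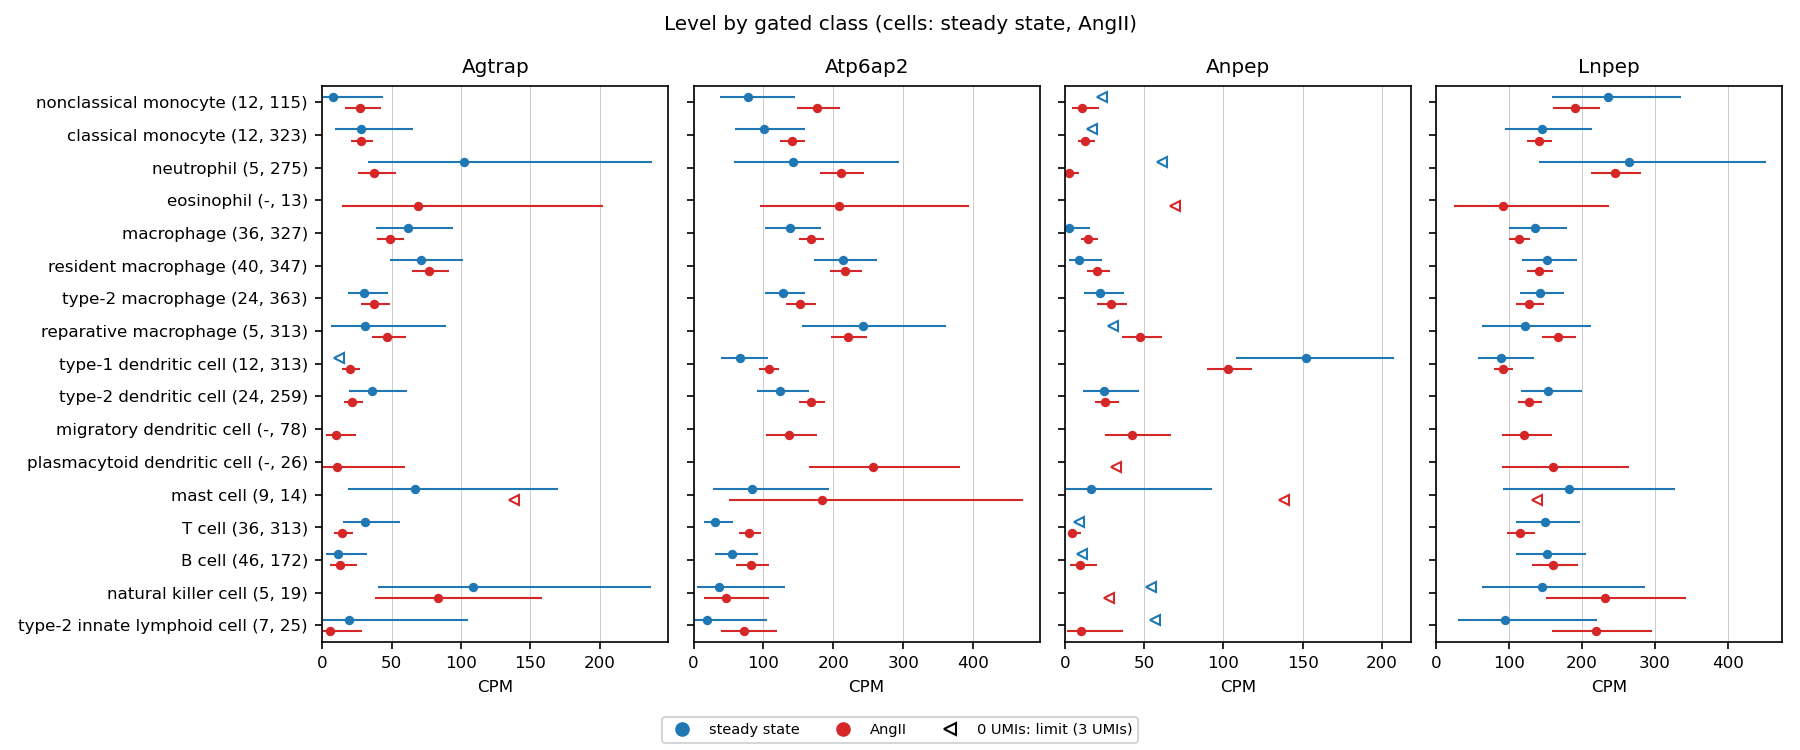
Levels in CPM of Agtrap, Atp6ap2, Anpep and Lnpep in each gated class at steady state (blue) and on AngII (red), with exact 95% counting intervals, and open triangles for the limit at 3 UMIs where no UMI was counted. Anpep peaks in type-1 dendritic cells (152 and 103 CPM), Agtrap and Atp6ap2 are higher in macrophages than in T and B cells, and Lnpep varies little between the steady state classes of 20 or more cells.

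Lnpep, the insulin-regulated aminopeptidase that binds angiotensin IV and travels with glucose transporter vesicles (chr17:17521410-17625050, minus strand), was nearly even across steady state classes. Over the 6 steady state classes of at least 20 cells it ran from 135 CPM in the macrophage gate to 154 CPM in the type-2 dendritic gate. This was a 1.14-fold range, and the cells of the latter gate also carried many macrophage markers. Only 0.0269% of 3719 genes with 100 or more UMIs in these classes had a smaller range (with 10 CPM added), and the median gene varied 2.53-fold. Over the 14 AngII classes its range was 2.67-fold, with 31.2% of genes varying less, from 91.5 CPM (78.9 to 106) in type-1 dendritic cells to 245 CPM (212 to 281) in neutrophils. Neutrophils stood 1.85-fold (1.59 to 2.14) above the other AngII cells and, in 5 cells, at 265 CPM (141 to 453) at steady state. Macrophages and T and B cells did not differ beyond their intervals, at 142 and 150 CPM (ratio 0.947, 0.737 to 1.22) at steady state and 135 and 130 CPM (1.03, 0.897 to 1.19) on AngII.

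Between AngII and steady state macrophages, pooled over the 4 lists, 2 of the 5 members with at least 20 UMIs lay past 2-fold, while 15.4% of 10992 genes did in either direction. Anpep was at 25.6 CPM (21.9 to 29.8) on AngII and 12.5 CPM (7.53 to 19.5) at steady state, a ratio of 2.05 (1.27 to 3.49). Reparative macrophages made up 313 of the 1350 AngII macrophages and 5 of the 105 at steady state, and without them the ratio was 1.51 (0.921 to 2.61). After thinning to 1000 UMIs it was 0.864. Ace was at 1.70 CPM on AngII and 11.2 CPM at steady state (0.152, 0.0642 to 0.343), and without the 1 steady state cell with 13 UMIs the ratio was 0.624. Agtrap (1.08, 0.838 to 1.40), Atp6ap2 (1.16, 1.01 to 1.33) and Lnpep (0.947, 0.815 to 1.10) differed by less than 2-fold, with intervals that exclude 2-fold in either direction.

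Class by class, 5 ratios over 6 classes lay past 2-fold, and 0 did after thinning every cell to 1000 UMIs. The minimum of 20 UMIs over both groups was kept after thinning, which left few UMIs of these genes in these classes. The 0 therefore cannot tell whether the ratios hold at equal depth. The AngII cells of these classes had medians of 1018 to 2130 UMIs and the steady state cells 5567 to 26184. The 5 ratios were Anpep in the macrophage gate (14.6 against 2.82 CPM, the latter 1 UMI) and the resident gate (20.4 against 9.21 CPM), Ace in the type-2 gate, and Agtrap and Atp6ap2 in T cells. The 5 ratios were 1 of 4 measured members in the macrophage gate, where 24% of all genes lay past 2-fold, and 1 of 4 in the resident gate (17.9% of genes). They were 1 of 5 in the type-2 gate (13.2%) and 2 of 3 in the T cell gate (29.7%). No member lay past 2-fold of the 4 measured in the type-2 dendritic gate (22.8%), which was mixed at steady state, and the 2 in B cells (19.5%). With so few measured members, these counts are not read as a result about them. T cells had Atp6ap2 at 79.1 CPM on AngII and 30.4 CPM at steady state, 2.60-fold higher (1.36 to 5.59), beside a median shift of all genes of 0.21 on the log2 scale in this class. Agtrap in T cells was at 14.1 and 30.4 CPM (0.464, 0.203 to 1.12), and the intervals of Agtrap here and of Anpep in the macrophage and resident gates include 1. Type-1 dendritic cells, with 12 steady state cells, had Anpep at a ratio of 0.678 (0.480 to 0.981).

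**Figure D4:**
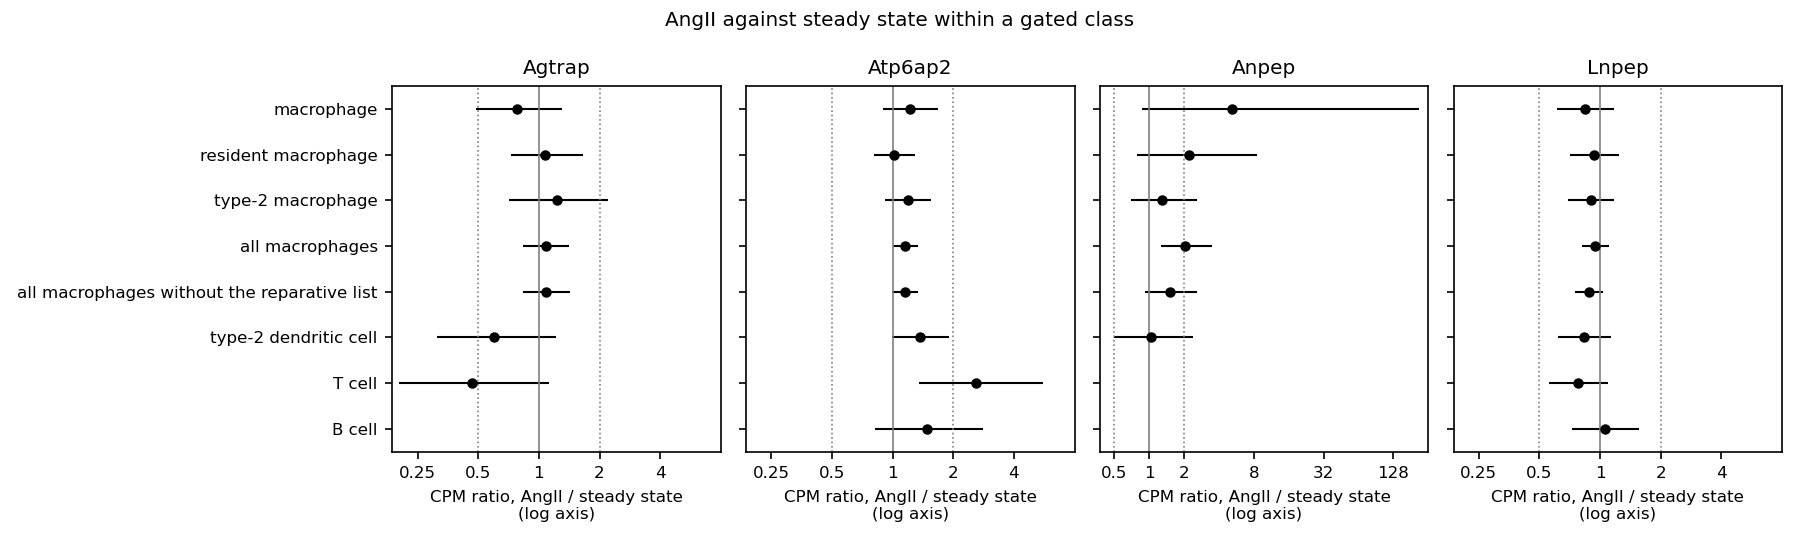
Ratio of CPM on AngII to steady state (log axes, with a wider axis for Anpep) for the 4 members with UMIs in most classes, with exact 95% counting intervals, a solid line at 1 and dotted lines at 0.5 and 2. Only genes with at least 20 UMIs over both libraries are drawn. The Agtrap, Atp6ap2 and Lnpep points of the macrophage classes lie between the dotted lines, while Atp6ap2 in T cells lies at 2.60.

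Yfp+ macrophages, with at least 1 EYFP UMI and so marked by the Rank-driven Cre, were compared with Yfp- macrophages of the same library. At steady state 77 were Yfp+ (median 11362 UMIs) and 28 Yfp- (8526 UMIs), and on AngII 241 were Yfp+ (7042 UMIs) and 1109 Yfp- (1155 UMIs), so depth moved with the label, and its part in the values was not tested. Of the members 0 of 3 measured at steady state and 0 of 4 on AngII lay past 2-fold, against 13.4% and 5.26% of genes. Atp6ap2 was at 180 CPM in Yfp+ and 112 CPM in Yfp- cells at steady state (1.61, 1.15 to 2.29), but within resident macrophages alone it was at 198 CPM in 33 Yfp+ and 320 CPM in 7 Yfp- cells (0.620, 0.367 to 1.10). On AngII Atp6ap2 was at 195 and 184 CPM (1.06, 0.948 to 1.20). Agtrap on AngII was at 62.9 and 47.0 CPM (1.34, 1.08 to 1.66), and within resident macrophages at 86.7 and 61.9 CPM (1.40, 0.961 to 2.07).

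Among the other genes of angiotensin metabolism, Agt (angiotensinogen), Ren1 (renin) and Mrgprd (a receptor for alamandine) had 0 UMIs in both libraries. The mast cell proteases were counted almost only in mast cells, which were gated on other genes. Cma1 (chymase, which can form angiotensin II without Ace) had 1552 of 1555 steady state UMIs in 9 mast cells and 1025 of 1097 AngII UMIs in 14 mast cells, 25794 and 47220 CPM. Mcpt4, a further chymase, stood at 34087 and 47588 CPM and Cpa3, a carboxypeptidase, at 22071 and 23633 CPM there. Mme (neprilysin) had 1 UMI in the filtered cells.

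The peptidases Ctsa, Prcp and Rnpep were higher in macrophages than in T and B cells, as Agtrap and Atp6ap2 were. Other myeloid classes came close to or above macrophages on AngII. Rnpep was at 197 CPM in classical monocytes and 166 CPM in macrophages. Prcp was at 353 CPM (33 UMIs) in the 26 plasmacytoid dendritic cells, 176 CPM in type-1 dendritic cells and 169 CPM in macrophages. Ctsa was at 360 CPM in classical monocytes and 409 CPM in macrophages. Against T and B cells, 4 of 6 measured genes of this list were 2-fold or more higher in macrophages in each library, beside the 24.7% and 18.3% of all genes given above. Ctsa, a lysosomal carboxypeptidase, was at 310 against 66.8 CPM at steady state and at 409 against 104 CPM on AngII. Prcp, which removes the last residue of angiotensin II, was at 221 against 50.1 CPM and at 169 against 71.2 CPM. Enpep (aminopeptidase A, which makes angiotensin III) was counted mainly in resident macrophages, at 73.7 CPM (32 of 50 UMIs) at steady state and 6.41 CPM (11 of 18 UMIs) on AngII. Between AngII and steady state macrophages Enpep was at 1.70 against 26.3 CPM, a ratio of 0.0645 (0.0298 to 0.128). It was the only 1 of 7 measured list genes past 2-fold there, a count near the share of all genes, 15.4% of 10992. Klk1, a kallikrein, had 27 of its 32 AngII UMIs in the 26 plasmacytoid dendritic cells, whose gate rests on a median of 2 markers per cell, and 0 UMIs at steady state.

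**Figure D5:**
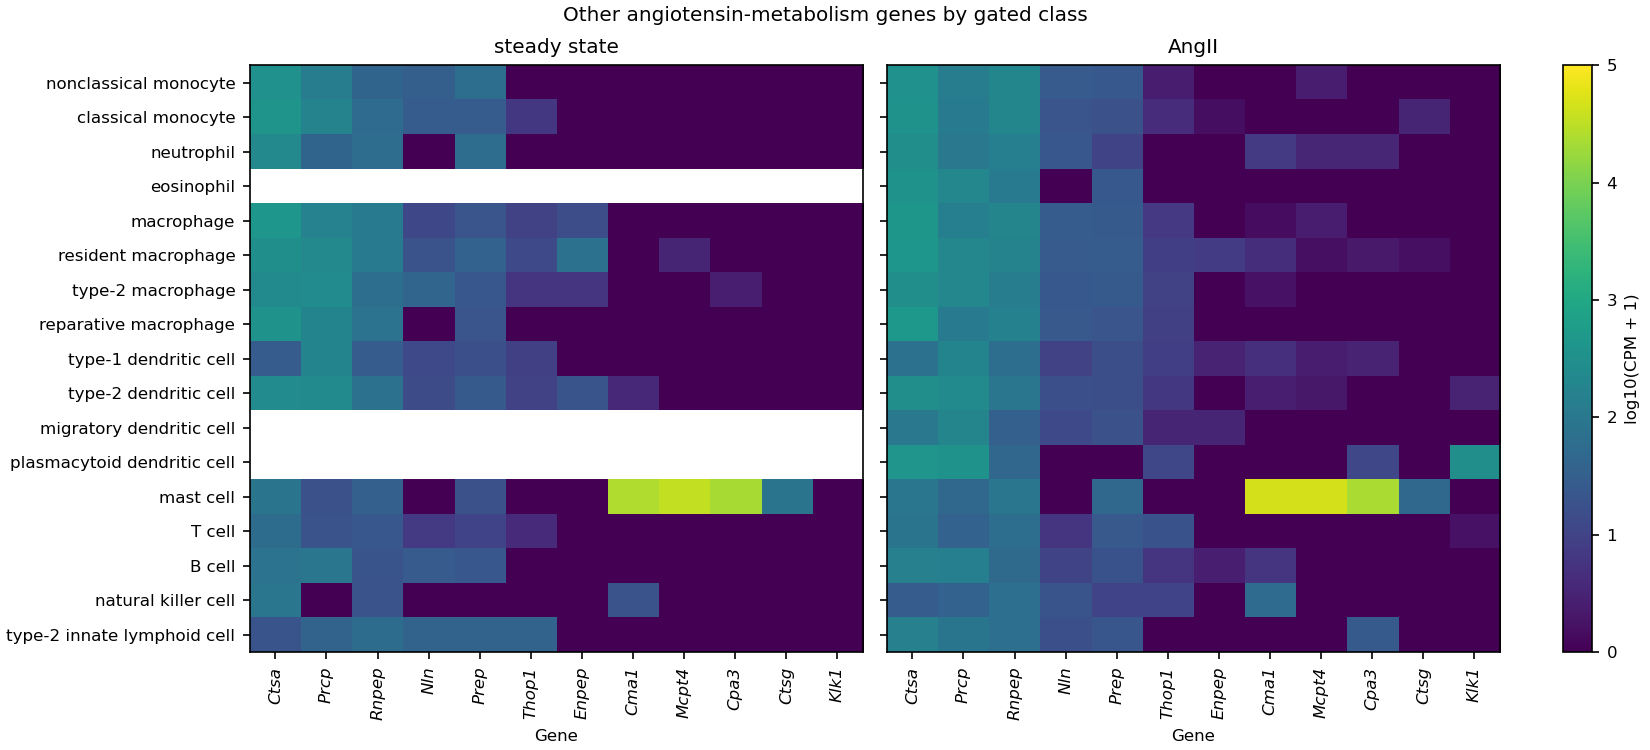
Levels of 12 other angiotensin-metabolism genes by gated class, as log10 of CPM with 1 added, at steady state and on AngII. Blank rows are gates not reported at steady state. The mast cell row is bright for Cma1, Mcpt4 and Cpa3, and Klk1 stands out in plasmacytoid dendritic cells on AngII at 289 CPM.

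The genes whose levels followed each member most closely over the 12 AngII classes of at least 50 cells, among 9509 genes, are given as a description, since all points share 1 library and its depth. For Ace they were Serpinb10 (Pearson's r of 0.93), Nxpe4 (0.93), Ly6i (0.92), Ctsk (0.89) and Rap1gap2 (0.89), all highest in nonclassical monocytes. Ctsk held 117 UMIs in all, and the 98 in nonclassical monocytes all came from 1 cell. For Agtrap they were Plod1 (0.97), Hs1bp3 (0.97), Ap2s1 (0.96), Slc45a4 (0.95) and Twf1 (0.95), all highest in resident macrophages. For Anpep they were Slc33a1, Rab10 and Shtn1 (0.89 each), Hipk2 and Pi4k2a (0.86 each), all highest in type-1 dendritic cells. For Atp6ap2 they were Acadsb (0.95), Hk3, Mtmr6, Slc35f5 and Ptpn12, and for Lnpep Usp32 (0.92), Cyb5d2, Itprip, Fgd3 and Ep300, the last 5 all highest in neutrophils.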

How the data were processed

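CD45+ adventitial cells were sequenced as 1 droplet library (3′ v3.1 chemistry) per condition, steady state and AngII. The reads were aligned by the authors with Cell Ranger 3.1.0 against mouse GRCm38.p6 (GENCODE M24 genes) to which eYFP had been added. The deposited values are raw UMI counts for each gene in each barcode called a cell, of which 4009678 were in the steady state and 20481854 in the AngII library. A barcode was kept if it had between 300 and 6500 genes and no more than 5% of its UMIs from mitochondrial genes (40 steady state and 221 AngII barcodes were removed). No doublet caller was run, and cells passing a gate of another lineage were left out in an alternative.

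Cells were gated on 17 leukocyte lists and 5 others (151 markers). Each marker's log2 of 1 plus UMIs per 10000 was standardized, averaged per list and scaled to SD units over cells. The class was the highest list with at least 2 distinct markers and a score of at least 1 SD, and cells within 0.5 SD of another passing list were counted as near the boundary. A gate was reported from 5 cells on, if at least 2 of its own markers, and more than of any other list, were among its 10 leading genes, and other cells were left ungated. The gating was settled after the data were seen. The members, lists and comparisons were chosen with earlier results of these data known, and the other pathway genes and the genes most like a member follow a rule written with the design.

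UMIs were summed over a class and expressed in CPM, with an exact Poisson interval, shares have exact binomial (Clopper-Pearson) intervals, and ratios have exact conditional intervals, all at 95%. A count of 0 gives a limit at 3 UMIs. A gene was measured in a comparison with at least 20 UMIs over both groups and lay past 2-fold from a ratio of 2. Classes of at least 20 cells in both libraries were compared between conditions. UMIs from PCR copies are collapsed, but cells of 1 library are not replicates. Promoters came from the RefSeq table, and gene positions and transcripts from GENCODE M21, whose identifiers matched all 9 members. Python 3.11.15, NumPy 2.4.6, SciPy 1.17.1, pandas 2.3.3, Scanpy 1.11.5 and Matplotlib 3.10.9 were used, and the scripts were tested on simulated data. Alternatives were all deposited barcodes, a stricter gate, clusters in place of gates, thinning to 1000 or 500 UMIs, other scalings, other UMI minimums and folds, and leaving out single cells or cells of mixed lineage. One gene of the pathway list is not reported here.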

Additional observations from a re-analysis of the deposited data

Results flagged for a closer look

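Members were also counted in the barcodes that the cell filter removed, which entered the receptor counts and the alternative with all barcodes but no other comparison. In the 40 removed steady state barcodes (361705 UMIs) Ace stood at 35.9 CPM, Agtrap at 74.6, Atp6ap2 at 113, Anpep at 41.5 and Lnpep at 169 CPM, all above the limit of 8.29 CPM that a count of 0 allows there. In the 221 removed AngII barcodes (2472969 UMIs) Ace stood at 3.64 CPM, Agtrap at 39.6, Atp6ap2 at 146, Anpep at 34.8 and Lnpep at 138 CPM, above a limit of 1.21 CPM. The largest gap to the filtered cells of the same library was that of Ace on AngII, at 3.64 against 10.4 CPM from 9 UMIs. The 4 receptors had 0 UMIs in these barcodes too.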

How the results depend on the processing

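No paired analysis was possible because each condition has 1 library. Of 166 alternative values for results that answer a comparison, 121 stayed within the counting interval or within 1.5 times the count, 45 moved, and none of these ratios past 2-fold turned to the other side of 1. Lnpep in macrophages over T and B cells, close to 1, crossed it in both libraries. Receptor UMIs were recounted only with all deposited barcodes and with a UMI minimum per cell, and were 0. With 0 over all deposited barcodes no filter could give another value, and these values are among the 121. The minimums of 4 and 6 markers, the minimum of 5000 UMIs and the pooling without the reparative list were chosen after seeing the data.

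For Ace in nonclassical monocytes over other cells (35.2 at steady state, 33.8 on AngII), steady state values were 54.0 after thinning to 1000 UMIs, 58.0 after thinning to 500, 55.1 as a mean over cells, 113 for cells with 4 or more markers and 134 for 6 or more, and the AngII value for 6 or more was 86.3. Anpep in myeloid over lymphoid cells was 3.64 at steady state as a mean over cells, and on AngII 2.52 and 1.92 after thinning to 1000 and 500 UMIs and 1.48 as a mean over cells. In macrophages over T and B cells, thinning to 1000 UMIs gave 5.45 for Agtrap, 7.01 for Atp6ap2 and 1.32 for Lnpep at steady state and 1.77 for Atp6ap2, 2.16 for Anpep and 1.27 for Lnpep on AngII. Thinning to 500 gave 1.95 for Atp6ap2 at steady state and 1.56 for Atp6ap2, 1.17 for Anpep and 0.797 for Lnpep on AngII. Scaling without mitochondrial and ribosomal protein genes gave 0.729 for Lnpep at steady state and 1.92 for Atp6ap2 and 0.846 for Lnpep on AngII, and the mean over cells gave 1.70 for Atp6ap2 and 1.01 for Anpep on AngII.

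The 2 members past 2-fold between AngII and steady state macrophages became 0 with clusters in place of gates, without cells passing a gate of another lineage and without the single cell richest in the gene, and 1 with all barcodes, with 1 more marker for the gate, after both thinnings, as a mean over cells, from 100 UMIs on and without the reparative list. The 5 over single classes became 3 with all barcodes, 2 with clusters, 0 after thinning to 1000 UMIs, 8 as a mean over cells, 3 without the richest cell and 1 from 100 UMIs on. The 0 between Yfp+ and Yfp- macrophages became 1 at steady state with all barcodes and at a fold of 1.5, and 1 on AngII with clusters and after thinning to 1000 UMIs. Between AngII and steady state macrophages, Ace turned to 1.45 with clusters, and Anpep to 0.864 and 0.337 after thinning to 1000 and 500 UMIs. The cause was not tested, other than that fewer cells and UMIs entered the thinned and filtered values. No AngII cluster could be named nonclassical monocyte and no steady state cluster neutrophil, and thinning left too few UMIs for Anpep in the steady state contrasts of type-1 dendritic and lymphoid cells and, at 500 UMIs, for Ace in macrophages, so these have no value. The median depth of 1092 UMIs per AngII cell limits shares of cells, so levels summed over a class carry the results.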
